A study of Homo sapiens with 3 samples.

Results

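The genes described here are 5 transcription factor genes of the switch from a B cell to an antibody-secreting plasma cell: IRF4, PRDM1, XBP1, BACH2 and IRF8. They were looked up in 2 deposited interval lists from SC1, an established human lymphoma line whose labels give its cell type as diffuse large B-cell lymphoma (DLBCL). One list came from chromatin immunoprecipitation and sequencing (ChIP-seq) with an antibody to CREBBP, a histone acetyltransferase, and the other from ChIP-seq with an antibody to H3K27ac, the acetylated form of lysine 27 of histone H3 that marks active promoters and enhancers. Each antibody had 1 library, an input library without antibody was not analysed here, and no sample differs in genotype, dose or time in its labels. The interval names in both files also include "DMSO" and "rep2", and no label says what these mean. Every interval that overlapped a gene body extended by 20 kb on each side was taken. This gave 60 of 215598 CREBBP peaks and 17 of 18263 H3K27ac regions. No exon annotation of the files' build, hg19, was used, so exons, introns and the start sites of other isoforms are not given. For the same reason the marks at genes that define B cells were not examined, and the cell type rests on the label.

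Plasma cell differentiation is driven by opposed sets of transcription factors. IRF4 acts by dose, and at high levels it activates PRDM1, which encodes BLIMP1, a repressor that shuts down the B-cell programme. XBP1 acts downstream and expands the secretory machinery through the unfolded protein response. BACH2 holds cells in the B-cell state by repressing PRDM1, and IRF8 supports the programme of germinal-centre B cells, a stage from which many DLBCL arise. CREBBP acetylates H3K27 at enhancers, and its gene is often mutated in DLBCL.

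All 5 gene starts lay under an H3K27ac region, and CREBBP peaks lay across the start at PRDM1 alone. The shares of all gene starts with the mark or with a CREBBP peak were not analysed here, so these counts have no background. The bases just before these starts are shown for the 4 genes whose RefSeq promoter entry (build GRCh38.p14) has the start used here. An entry was matched when its start lay as far from the gene's end as in the hg19 gene body, to within 65 bp in these 4. IRF8 had no entry at its start. Each line gives the 250 bases before the start, 5′ to 3′ on the gene's strand, with motif matches in capitals.
IRF4: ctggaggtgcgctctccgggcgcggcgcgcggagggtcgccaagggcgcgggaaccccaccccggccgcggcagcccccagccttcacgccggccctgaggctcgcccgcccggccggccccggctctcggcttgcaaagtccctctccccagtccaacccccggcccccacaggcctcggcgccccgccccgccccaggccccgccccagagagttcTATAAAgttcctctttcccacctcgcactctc
PRDM1: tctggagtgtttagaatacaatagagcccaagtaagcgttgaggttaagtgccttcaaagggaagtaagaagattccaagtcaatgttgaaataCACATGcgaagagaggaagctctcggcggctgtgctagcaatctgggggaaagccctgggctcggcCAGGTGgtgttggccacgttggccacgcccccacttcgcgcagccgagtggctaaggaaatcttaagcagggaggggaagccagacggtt
XBP1: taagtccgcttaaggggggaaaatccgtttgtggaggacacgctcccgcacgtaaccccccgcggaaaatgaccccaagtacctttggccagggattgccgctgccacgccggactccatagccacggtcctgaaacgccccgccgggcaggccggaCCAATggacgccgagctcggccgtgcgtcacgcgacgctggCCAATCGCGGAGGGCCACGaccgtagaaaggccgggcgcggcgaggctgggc
BACH2: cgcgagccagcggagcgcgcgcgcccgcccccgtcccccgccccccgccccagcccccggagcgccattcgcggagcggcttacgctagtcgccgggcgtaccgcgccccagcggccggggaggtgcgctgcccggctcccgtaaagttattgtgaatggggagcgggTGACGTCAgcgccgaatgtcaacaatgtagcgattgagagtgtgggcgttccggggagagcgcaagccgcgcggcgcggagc

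The 4 promoter sequences differed in base composition and in the short motifs they held. G and C made up 76% of the IRF4 sequence, 73.6% of BACH2, 67.6% of XBP1 and 53.6% of PRDM1, against a median of 58% over 35116 RefSeq promoter entries. CpG dinucleotides numbered 40 at BACH2, 31 at XBP1, 28 at IRF4 and 11 at PRDM1, and the median entry had 11. The capitals at BACH2 mark TGACGTCA, the cyclic AMP response element that CREB proteins bind, from 82 to 75 bases before the start. This element was in 1.65% of the entries. The capitals at XBP1 mark a CCAAT box from 93 to 89 bases before the start and a longer match from 52 to 34 bases before it. That longer match has the form of the endoplasmic reticulum stress response element (CCAAT, any 9 bases, then CCACG), present in 0.074% of entries, and its own first bases are a second CCAAT box. CCAAT alone was in 32.0% of entries. At IRF4 the capitals mark TATAAA, from 32 to 27 bases before the start, a hexamer in 10.7% of entries. At PRDM1 they mark 2 E-boxes (CANNTG), from 156 to 151 and from 90 to 85 bases before the start, and 61.8% of entries hold at least 1. The interferon response form (GAAA, any 2 bases, GAAA), the ETS and IRF composite (GGAA, any 2 bases, GAAA), the Maf recognition form that BACH2 binds (TGCTGA followed by GTCA) and TGACGTGG, a form XBP1 binds, were absent from all 4 stretches. Both strands were searched. Their shares over all entries were 3.02%, 2.41%, 0.131% and 0.612%.

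H3K27ac covered 39.9 kb of the 643 kb in the 5 windows, 6.21%, against 1.12% of the extent of chromosomes 1 to 22 and X. That extent includes stretches without genes. The share over the windows of other genes was not analysed here, so 6.21% has no background of gene windows. The 5 windows differed in how much of their length carried the mark. It covered 16.98% of the IRF8 window (10.8 of 63.4 kb), 9.53% of IRF4 (5.69 of 59.7 kb) and 4.89% of BACH2 (20.1 of 410 kb). The lowest shares were 3.65% at PRDM1 (2.32 of 63.6 kb) and 2.35% at XBP1 (1.08 of 46.0 kb). The chromosomes differed too. The covered share was 1.197% of chromosome 6 (IRF4, PRDM1, BACH2), 1.618% of chromosome 16 (IRF8) and 2.093% of chromosome 22 (XBP1). All of these chromosome shares are taken over every base up to the last interval, unsequenced stretches included. No region can be called in such stretches, and their length was not removed. Whether the XBP1 window lies above or below its own chromosome can therefore not be read from these values. Without replicates none of these values has an error between cultures, and no difference between genes was tested.

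CREBBP peaks were spread over the windows at 93.3 per Mb, where the whole list had 71.0 per Mb. The density over the windows of other genes was not analysed here. By gene the density was 110 per Mb at PRDM1 (7 peaks), 105 at BACH2 (43), 78.8 at IRF8 (5), 65.2 at XBP1 (3) and 33.5 at IRF4 (2). The chromosomes themselves differed, with 78.5 per Mb on chromosome 6, 52.6 on chromosome 16 and 47.4 on chromosome 22. The densities of the chromosomes and of the whole list also count every base up to the last interval, unsequenced stretches included. The order of the genes by CREBBP density was therefore not their order by H3K27ac coverage, in which IRF8 and IRF4 came first. Most of the counts are small, and the list has no limit on q, the p-value adjusted by the authors' peak caller.

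Of the 60 CREBBP peaks, 12 shared at least 1 bp with an H3K27ac region, 20% (exact Clopper-Pearson 95% interval 10.8 to 32.3%), against 5.06% of the whole list. It was 11.7% (7 of 60) when the 50% of H3K27ac regions with the weaker q were left out, and the list's share was not recomputed for that setting. The windows also held more H3K27ac per length than the chromosomes at large, as given above, and its part in this share was not tested. By gene, 1 of 2 peaks lay inside at IRF4, 2 of 7 at PRDM1 and 3 of 5 at IRF8. At XBP1 it was 0 of 3, and at BACH2, which gave most of the 60 peaks, 6 of 43. Seen from the mark, 10 of the 17 H3K27ac regions held a CREBBP peak, 58.8% (32.9 to 81.6%), and 49.0% of all regions did. That interval includes the share of the whole list. Only 1 of the 60 peaks had a q of 0.05 or less, 1.67% (0.0422 to 8.94%), against 1.81% of the list. With 1 such peak the interval is wide, so closeness to the list cannot be read from it. None of the 17 regions held a peak of that strength (0 to 19.5%), and 11.4% of all regions did. In 41 of the 60 peaks, 68.3%, the −log10 q was 0, against 80.7% of the list. Intervals cover counting error only. They treat peaks and regions as independent, although many share a window, so they are no test of a difference from the list.

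**Figure D1:**
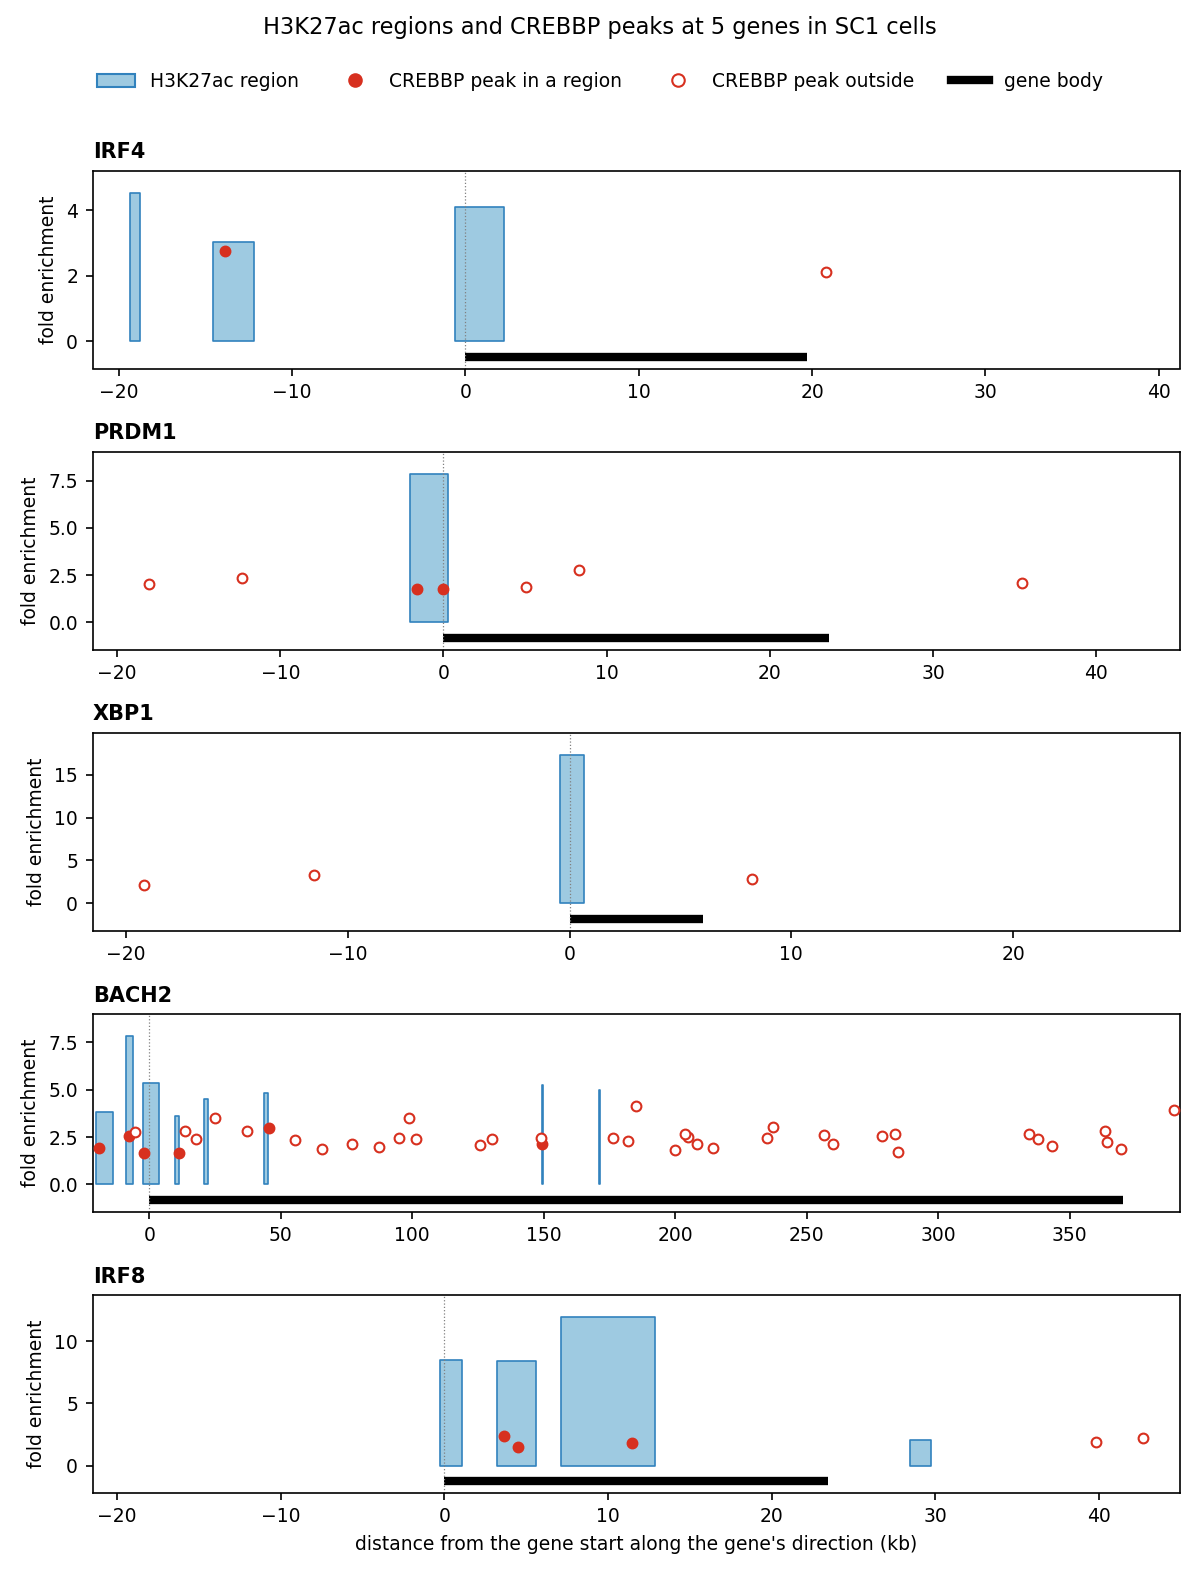
Positions of the H3K27ac regions (blue boxes, as high as their fold) and CREBBP peaks (points at the summit and at their fold, filled where the peak shares a base with a region) by distance in kb from each gene start. Fold enrichment is the authors' value, the scales differ between panels, and black bars are gene bodies. Each of the 5 starts lies in a box, and CREBBP points at XBP1 all lie outside.

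The regions across the gene starts differed in fold, the authors' ratio of ChIP signal to expected background, taken as a mean over the region. XBP1 had the largest of the 5 at 17.3, with 96.8% of the list at or below it. IRF8 followed at 8.49 and PRDM1 at 7.86, with 77.8% and 74.5% of the list at or below them. BACH2 stood at 5.34 and IRF4 at 4.10, on either side of the list's median of 4.92. The spread was thus from 4.10 to 17.3 among genes that all had a marked start. Their widths ran in another order, from 1080 bp at XBP1, 1354 bp at IRF8 and 2321 bp at PRDM1 to 2810 bp at IRF4 and 6286 bp at BACH2. Over the list the median width was 1423 bp, with quartiles at 919 and 2153 bp. A fold of this kind averages over the region, so a wide region with a narrow summit can have a low value.

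**Figure D2:**
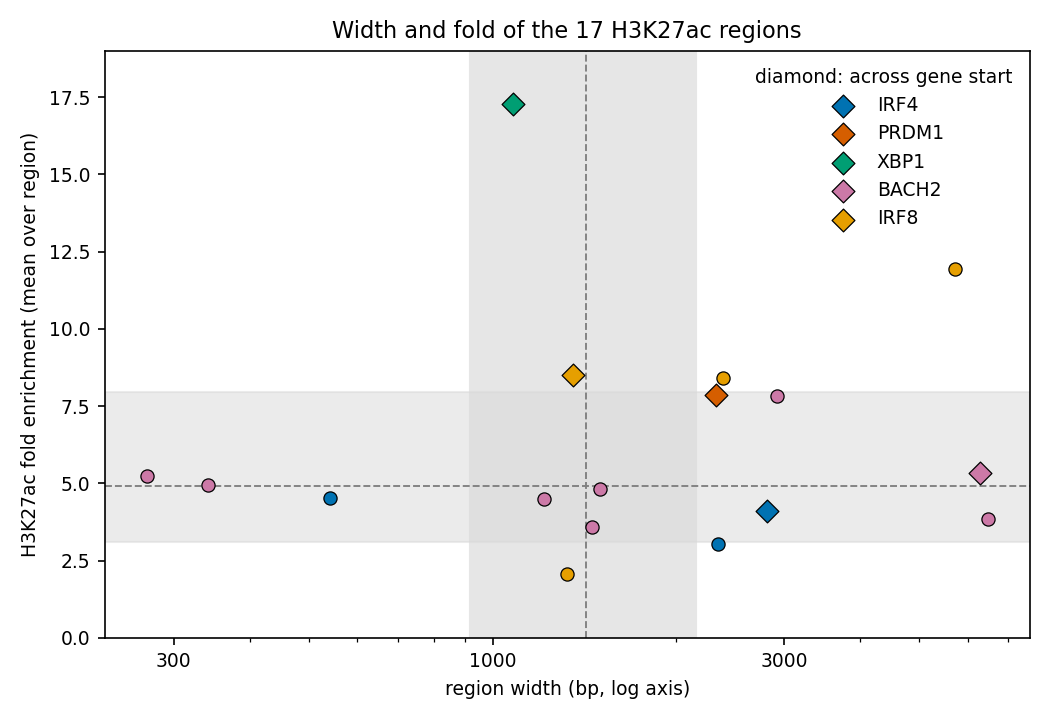
Fold enrichment against width in bp (log axis) for each of the 17 H3K27ac regions, coloured by gene, with diamonds for the 5 regions across a gene start. Dashed lines are the medians of the whole list (1423 bp and 4.92) and grey bands its interquartile ranges; the XBP1 diamond stands highest, at 17.3, with a width of 1080 bp.

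IRF4, the interferon regulatory factor that drives the plasma cell fate at high levels, lies on chromosome 6 from 391739 to 411447 and had 3 H3K27ac regions. The region across its start (391136 to 393945) reached from 603 bp before the start to 2206 bp into the gene. The 2 others lay upstream, at 372417 to 372957 (fold 4.53, 541 bp) and at 377197 to 379536 (fold 3.03, 2340 bp). The rest of the gene body and the 20 kb beyond it had no H3K27ac region. Neither the start region nor the first of the upstream regions held a CREBBP peak. The start region was 12.8 kb from the nearest one.

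The single CREBBP peak inside H3K27ac at IRF4 lay 13.9 kb before the start, at 377164 to 378365, and covered 1202 bp, more than 99.3% of the peaks in the list. Its fold was 2.74 and its −log10 q was 0.797, short of the 1.30 that a q of 0.05 requires. Peak strength can be put in fragments, because the deposited fold and p together fix a whole number of fragments at the summit and a background. This inference assumes the formulas described under processing, and it matched −log10 p within 0.001 at all 60 peaks. The upstream peak then had 15 fragments over a background of 4.83. The other IRF4 peak, beyond the gene's end at 412158 to 412601, had 6 fragments over 2.29 and a fold of 2.13. It lay 18.2 kb from any H3K27ac region.

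PRDM1, whose product BLIMP1 represses the B-cell programme, lies on chromosome 6 from 106534195 to 106557814 and had a single H3K27ac region. That region, at 106532123 to 106534443, had a −log10 q of 115 and lay almost wholly before the start, with 2072 bp (89.3%) upstream and 249 bp within the gene. The remaining gene body had no H3K27ac region. CREBBP peaks were found both inside the region and along the gene.

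PRDM1 was the only 1 of the 5 genes with a CREBBP peak across its start. This peak spanned 106534117 to 106534375, with its summit 47 bp before the start, within the stretch printed above. It had 17 fragments over a background of 9.24, a fold of 1.76 and a −log10 q of 0. A second peak in the region, at 106532495 to 106532823 and 1625 bp before the start, had 14 fragments over 7.39 and a fold of 1.79. These are counts above the list's median of 5 fragments, on backgrounds above its median of 1.30, and neither peak came near a q of 0.05. The other 5 PRDM1 peaks had 4 to 8 fragments. The highest fold among them, 2.75 with 8 fragments over 2.27, was 8321 bp into the gene at 106542427 to 106542674, 7984 bp from the H3K27ac region.

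XBP1, the unfolded protein response factor of secretory cells, lies on chromosome 22 from 29190548 to 29196560 and is read towards lower positions. Its one H3K27ac region, at 29195908 to 29196987, had the largest fold of the 17, 17.3, and a −log10 q of 216. It was also compact, since 67.2% of the regions in the list were wider. It reached 427 bp before the start and 652 bp into the gene. No CREBBP peak lay in it or in the gene body.

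The 3 CREBBP peaks of the XBP1 window all lay outside H3K27ac. The nearest to the start was beyond the gene's other end, 8211 bp from the start, at 29187673 to 29188575, with 15 fragments over 4.62, a fold of 2.85 and a −log10 q of 0.968. This was the largest number of fragments among the 48 peaks outside H3K27ac regions. Upstream, a peak of 1084 bp at 29207184 to 29208267 had 9 fragments over 1.97 and the largest fold of the window, 3.37. The third, 19.2 kb upstream, had 6 fragments and a fold of 2.13. The start region with the largest H3K27ac fold of the 5 genes was thus 7333 bp, edge to edge, from the nearest CREBBP peak of the list.

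BACH2, the repressor that keeps PRDM1 off in B cells, is by far the longest of the genes, 370 kb on chromosome 6 from 90636247 to 91006627, read towards lower positions. Its 8 H3K27ac regions gathered at the 5′ end. In the 20 kb before the start H3K27ac covered 11.4 kb, in the first 50 kb of the gene 8.04 kb, and in the rest of the body only the 2 short regions described next. The region across the start, at 91002750 to 91009035, spanned 6286 bp with a fold of 5.34. A pair of regions lay upstream of it. The first, at 91012650 to 91015569, had the largest fold of the gene, 7.82, and the second, at 91020535 to 91027006, was the widest of the 17 regions at 6472 bp, with a fold of 3.84.

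Inside BACH2 the regions were narrower. Those at 90995359 to 90996811, 90984451 to 90985665 and 90961435 to 90962932 began 9.82, 21.0 and 43.7 kb into the gene, with widths of 1453, 1215 and 1498 bp and folds of 3.60, 4.51 and 4.82. The deepest were 2 short regions at 90857006 to 90857276 (271 bp, fold 5.23) and 90835283 to 90835624 (342 bp, fold 4.96), about 149 and 171 kb from the start. Both stood near the list's median fold, yet 99.2% and 96.3% of the regions in the list were wider. The 219 kb of the window beyond them had no H3K27ac region.

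CREBBP peaks at BACH2 were spread along the whole gene. Beyond the deepest H3K27ac region there were 22 CREBBP summits, 1.00 per 10 kb, and up to it there were 21, 1.098 per 10 kb. The median fold was 2.44 beyond and 2.39 up to that point. The median number of fragments was 6 beyond and 8 up to it, over median backgrounds of 1.84 and 2.77. The 20 kb before the start had 4 summits, 2 per 10 kb, against 0.710 per 10 kb over the whole list. In 29 of the 43 BACH2 peaks the −log10 q was 0, as in 80.7% of the list, so most are weak calls. These counts are low, and no difference between stretches was tested.

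**Figure D3:**
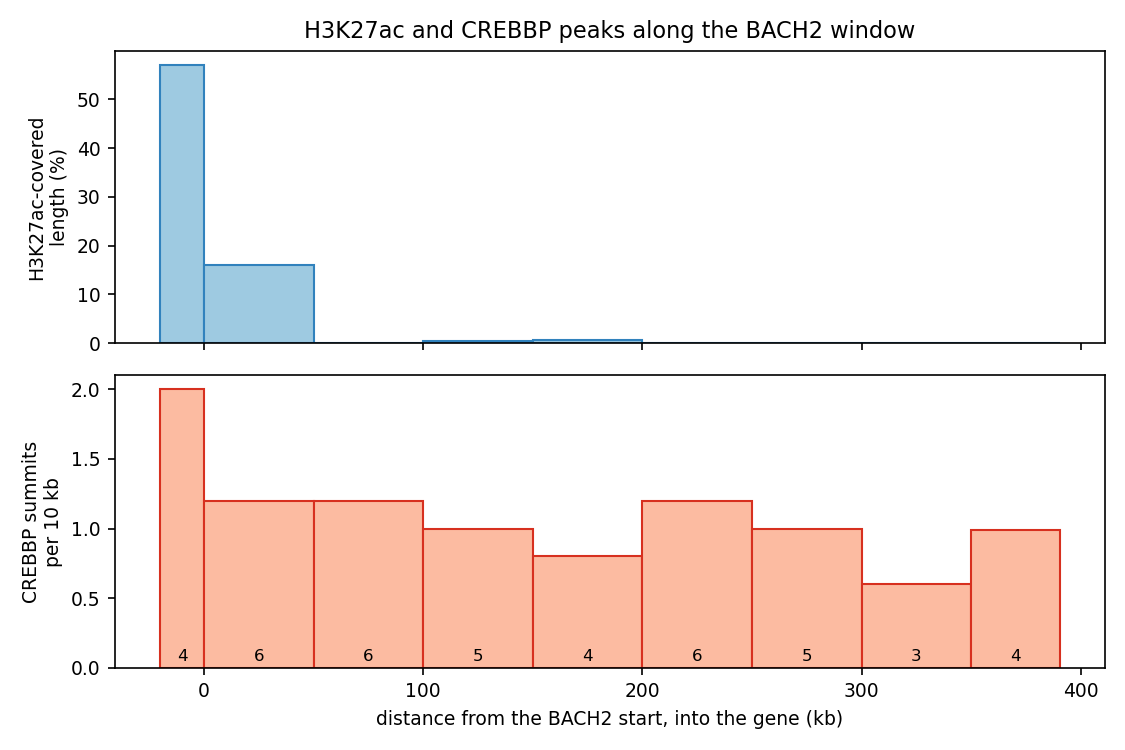
H3K27ac-covered length (percent, upper panel) and CREBBP summits per 10 kb (lower panel, with the number of summits in each bar) by distance in kb from the BACH2 start, from 20 kb before it to 20 kb beyond the gene's end. Bars are 50 kb wide except the first and the last, and the mark falls away after the first 50 kb while summits number 3 to 6 in every bar.

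At BACH2, 6 of the 43 CREBBP peaks shared bases with H3K27ac, 3 before the start and 3 within the gene. The peak in the start region, at 91008516 to 91008876, was 1971 bp before the start and had 10 fragments over 5.54, with a fold of 1.68. The peak in the region of largest fold, at 91013921 to 91014482, had 14 fragments over 4.81 and a fold of 2.58. The most fragments, 16 over 9.24, were at 90995343 to 90995823 in the region 9.82 kb into the gene, and there the fold was only 1.66. Among the others, the peaks at 91025848 to 91026114 and 90856886 to 90857237 had 8 and 7 fragments and folds of 1.93 and 2.12. At the peak of 90960928 to 90961496, with 8 fragments and a fold of 2.96, the summit lay outside the region that its flank touched. It was the 1 peak of the 12 inside for which this was so.

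The strongest CREBBP peak of the 5 genes by q stood in the BACH2 gene body away from H3K27ac. It lay at 90821237 to 90821738, 185 kb into the gene and 13545 bp from the nearest region, with 10 fragments over 1.65, a fold of 4.15 and a q of 0.0108. A fold this high was passed by few peaks, since 99.5% of the list stood at or below it. The next by q, at 90616796 to 90617476 beyond the gene's end, had a fold of 3.91 and a q of 0.0509, just outside the threshold. It had 8 fragments over the list's commonest background of 1.30 and lay 76.4 kb from H3K27ac. A further 2 had folds of 3.51 and 3.52, both with a −log10 q of 1.01 or less, at 90907637 to 90907985 and 90981254 to 90982191.

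IRF8, a germinal-centre regulator that works with PU.1 and other partners, lies on chromosome 16 from 85932774 to 85956211. It carried the mark over the largest share of its window. Of the covered length, 85.3% (9.18 of 10.8 kb) lay within the gene, against 10.7 to 60.5% at the other 4 genes. The region across the start, at 85932509 to 85933862, had a fold of 8.49. It was followed by a region at 85935972 to 85938351 (2380 bp, fold 8.40) and by one at 85939919 to 85945633 (5715 bp, fold 11.9). The last of these was both wide and strong, with 96.4% of the list at or below it by width and 89.8% by fold. One weak region more, at 85961216 to 85962537 past the gene's end, had a fold of 2.07, and 92.3% of the list stood above it.

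CREBBP peaks at IRF8 lay in the regions within the gene and not in the start region. The peak at 85936248 to 85936795 had 22 fragments, the most of the 60, over a background of 8.71, a fold of 2.37 and a −log10 q of 0.842. In the same region, the peak at 85937113 to 85937494 had 20 fragments over 12.9, the highest background of the 60, and the lowest fold, 1.51. The wide region that followed held 1 peak, at 85944063 to 85944382, with 14 fragments over 7.39. The start region was 2386 bp from the nearest peak. The 2 peaks past the gene's end had 6 and 7 fragments and lay 9.94 kb or more from H3K27ac.

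Pooled over the 5 genes, peaks inside H3K27ac had a higher median number of fragments and a lower median fold than peaks outside. The pool was mostly BACH2, with 43 of the 60 peaks. XBP1 had no peak inside, and at IRF4, with 1 peak of each kind, the fold was higher inside (2.74) than outside (2.13). The 12 inside had 7 to 22 fragments (median 14) over backgrounds of 2.04 to 12.9 (median 6.47). The 48 outside had 4 to 15 fragments (median 6) over 1.30 to 4.62 (median 2.04). Fold ran from 1.51 to 2.96 inside (median 1.86) and from 1.70 to 4.15 outside (median 2.39). Both measures overlap between the sets, and the background moved with them. In the whole list the median peak inside had 16 fragments over 6.87, close to the 14 over 6.47 at these genes. The list's commonest background, 1.30, was found at 2 of the 60 peaks (3.33%), against 54.5% of the list and 57.6% of chromosome 6. Both of these peaks lay outside H3K27ac, where they made up 4.17% of the 48, against 57.2% of the list's peaks outside. The part of background in these values was not tested.

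**Figure D4:**
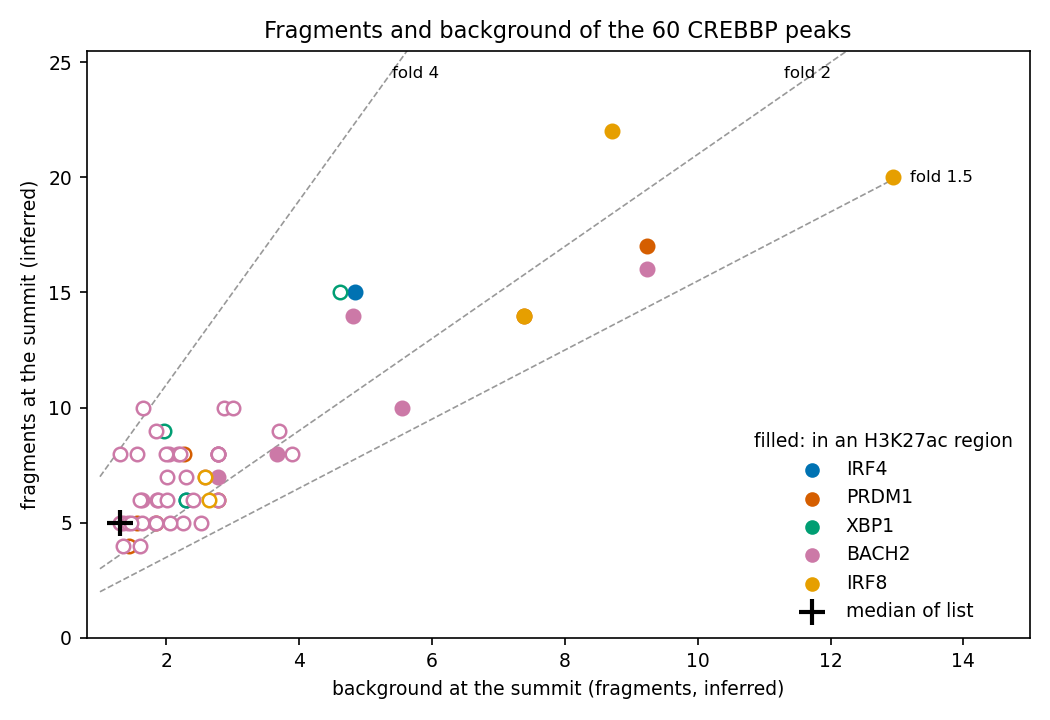
Inferred number of fragments at the summit against inferred background, in fragments, for the 60 CREBBP peaks, coloured by gene and filled where a peak shares a base with an H3K27ac region (some points coincide). Dashed lines join points of equal fold, and the cross is the median of the list, 5 fragments over 1.30; the filled points of IRF8 and PRDM1 have 14 to 22 fragments.

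Joining H3K27ac regions within 12500 bp of each other placed 3 of the 5 genes in wide domains, the top 5% of 13232 domains by covered length (8.02 kb or more). The 5% is a share of domains and not of genes, and a long window can touch several domains. The share of all genes with a wide domain was not analysed here, so this count of genes has no background. The BACH2 domain joined 5 regions over 42.6 kb, from 90984451 to 91027006, with 18.3 kb covered, and ranked 104. The IRF4 domain joined 5 regions over 40.6 kb, from 353308 to 393945, with 17.4 kb covered, and ranked 122. It reached well past the window, and the gene next to IRF4 on that side in the RefSeq order is DUSP22. The first 3 regions of IRF8 formed a domain of 13.1 kb with 9.45 kb covered, which ranked 492. PRDM1 and XBP1 each had a lone region. The IRF4 domain depended on the joining: the mark covered 5.69 kb in the IRF4 window, under the 8.02 kb limit, and the rest came from 2 regions beyond it. Without joining, 2 genes, BACH2 and IRF8, had a region among the top 5% of single regions by width.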

How the data were processed

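Narrow CREBBP peaks and broad H3K27ac regions, 1 library each from SC1 cells, were used as deposited. Per the submitters' processing notes, the tools included fastp, Bowtie2, STAR and MACS2 and the build was hg19. Information on versions, settings, the control library and pooling is not given in the sources used here. The deposited lists give, by the authors' peak caller, a fold enrichment (a ratio of signal to background), −log10 p, −log10 q and a score, which was not used. The smallest deposited −log10 p in the CREBBP list was 1.30, a p-value of 0.05. Fold, p and q are the authors' own values. They were used to describe and rank intervals within a list.

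Intervals on chromosomes 1 to 22 and X were kept, which dropped 128 CREBBP peaks and 17 H3K27ac regions. Gene bodies on hg19 came with the choice of the 5 genes, and positions are counted from 1. Distances from the gene start follow the gene's strand. A peak lay inside a region when they shared at least 1 bp. The library depth is unknown. Fragments were inferred by taking fold as (fragments + 1) / (background + 1) and p as the upper Poisson tail above the number of fragments; a whole number matched −log10 p within 0.001 at 99.97% of the list. Overlap code was tested on simulated data.

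Every interval is described where a gene had at most 10 regions. CREBBP peaks named are those inside regions, of q at most 0.05, nearest to the start or of largest fold; the peaks with folds of 3.51 and 3.52 at BACH2 and the 1 of q 0.0509 were named after their values were seen, as was the BACH2 gradient. The TATAAA and stress response motifs were also added then. The genes and rules were chosen with earlier results of these data known. No test was run, since each antibody had 1 library. Other pathway genes (PAX5, BCL6, SPIB and others) were not analysed here, for want of hg19 positions. The software was Python 3.11.15 with matplotlib 3.10.9, scipy 1.17.1, pandas 2.3.3 and numpy 2.4.6.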

Additional observations from a re-analysis of the deposited data

How the results depend on the processing

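The shares and counts over the 5 windows kept within their counting interval or within 1.5 times the main value in 26 of 32 combinations of result and alternative setting. This rule is lenient, since the counting intervals are wide (10.8 to 32.3% for the share of CREBBP peaks inside H3K27ac). They also do not measure the effect of a setting on the same peaks. The number of CREBBP peaks of q at most 0.05 was 1; it was 3 with 50 kb on each side and 0 with q of at most 0.01. When H3K27ac regions were limited to the upper 50% by q, the regions fell from 17 to 7 and the covered length from 6.21% to 3.43%; the share of CREBBP peaks inside them fell from 20% to 11.7%, within its counting interval, IRF4 then kept no region and BACH2 kept 2. Without joining, the genes with a wide domain fell from 3 to 2. When CREBBP peaks were limited to q of at most 0.05, the share inside H3K27ac was 0% (of 1 peak) and the share of regions holding one was 0%. With gene bodies alone IRF4 and XBP1 had no CREBBP peak. Counts for single genes moved by over 1.5 times in 27 of 70 combinations, mostly when the window changed, since fewer or more bases were searched. No paired analysis was possible because there was a single library per antibody. Library depth is unknown, and the 60 CREBBP peaks had an inferred median of 7 fragments at the summit.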

Other observations

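Just outside the 20 kb limit, the strongest H3K27ac signal near any of the 5 genes lay beyond the XBP1 gene's end. A region at chromosome 22 from 29168529 to 29169633, 20.9 kb past that end, had a fold of 19.9 over 1105 bp, above the 17.3 of the XBP1 start. Unlike the XBP1 start it held a CREBBP peak, at 29168590 to 29169347, with 19 fragments over a background of 5.54, a fold of 3.06 and a −log10 q of 1.91. A second peak of q at most 0.05 lay at 29155983 to 29156383, outside H3K27ac, with 12 fragments over 2.77 and a fold of 3.45. In the RefSeq order the gene next to XBP1 on the side of this region is CCDC117, and ZNRF3 lies on the other side. No hg19 position of CCDC117 was used, so whether the region lies across its start was not tested. The region is not assigned to XBP1 here.

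Between 20 and 50 kb upstream of IRF4 there were 2 H3K27ac regions, the nearer at 363528 to 366440 (fold 5.93, 2913 bp) and the farther at 353308 to 362095 (fold 3.11, 8788 bp). The nearer held a CREBBP peak of 15 fragments over 6.47. Past PRDM1, 32.1 kb beyond the gene's end, a short region of 359 bp at 106589949 to 106590307 had a fold of 7.57, close to the 7.86 of the PRDM1 start, with no CREBBP peak in it. BACH2 and IRF8 had no H3K27ac region at that distance. Beyond the IRF8 window, the next region on the side of the gene's end lay 632 kb past that end.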
